A study of Homo sapiens with 2 samples.

Results

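CER1, GSC, LHX1, FOXA2, HHEX, CXCR4 and OTX2 are genes classically linked to the gastrula organizer and the early endoderm, and their transcripts were followed in single human embryonic stem cells (hESCs) exposed to bone morphogenetic protein 4 (BMP4). The 7 genes were chosen by symbol, and each matched a single row among the 33538 genes of the count tables. The first library, WT, came from unmodified H1 cells, an established hESC line. The second, GATA3 KO, came from KO-GATA3-06, a clone with CRISPR-targeted GATA3 derived from an H1 line that carries doxycycline-inducible Cas9. It is a single clone, so effects of the genotype, of the clone and of the cassette cannot be told apart. Both were grown in mTeSR1 medium with 50 ng/ml BMP4 for 48 h by their titles, although a protocol note of the WT library gives 1 h. There was 1 library per group, so no test was possible. All intervals are 95% intervals that cover counting error only, without differences between cultures. Those of levels and of their ratios treat each transcript count as independent, although counts of a gene can gather in few cells. They leave out the sampling of cells and are too narrow for such genes.

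During gastrulation, cells that leave the epiblast pass through the primitive streak. Its anterior end and the node form the organizer, a signaling center that patterns the embryo by releasing inhibitors of NODAL, WNT and BMP ligands. CER1 is one such secreted inhibitor. GSC and LHX1 are homeodomain transcription factors of the organizer and anterior streak, FOXA2 is a forkhead factor of node and definitive endoderm, and HHEX is a homeodomain factor of anterior endoderm. CXCR4 is the chemokine receptor used as a surface marker of definitive endoderm. OTX2 is a homeodomain factor of anterior streak and endoderm that is also active in epiblast cells and in the forebrain.

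The WT library held 3802 cells and the KO library 6221. After removal of cells with more than 7500 detected genes or more than 25% mitochondrial counts, 2519 and 4450 cells remained, with 99587274 and 175285931 unique molecular identifiers (UMIs, each a counted transcript molecule) and medians of 44415 and 43131.5 UMIs per cell. Only 8 cell barcodes occurred in both libraries. GATA3 transcript stood at 12.7 UMIs per 1000000 (CPM) in WT and 10.9 CPM in the KO library, and because these are counts of the transcript's 3′ end, they do not check the knockout label. Of 8 primitive streak markers, all 8 reached 1 CPM in WT and 6 did in the KO library, with summed levels of 329 and 24.0 CPM. Of 11 endoderm markers, 7 and 2 reached 1 CPM, and TTR was at 0 in WT. FOXA1 was at 0.0402 CPM in WT and 0.0685 CPM in the KO library. SOX17 and GATA6 were at 10.6 and 7.78 CPM in WT and at 0.160 and 0.131 CPM in the KO library. The 2 that reached 1 CPM in the KO library went the other way. FOXA3 was at 14.3 CPM in WT and 19.2 CPM in the KO library, and AFP at 4.99 and 7.83 CPM. With FOXA1, FOXA2 and CXCR4 all near 0, the endoderm part of the name was only partly borne out, and the genes are called by their symbols here.

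All 7 genes are protein coding. CER1 (ENSG00000147869) lies on chromosome 9, GSC (ENSG00000133937) and OTX2 (ENSG00000165588) on chromosome 14, LHX1 (ENSG00000273706) on chromosome 17, FOXA2 (ENSG00000125798) on chromosome 20, HHEX (ENSG00000152804) on chromosome 10 and CXCR4 (ENSG00000121966) on chromosome 2. OTX2 overlaps OTX2-AS1 on the opposite strand, which held 2 UMIs in WT and 3 in the KO library, and LHX1 overlaps an antisense gene that had no row in the tables. RefSeq promoter sequences were found for 5 of the 7 genes (not for LHX1 and FOXA2). The 250 bases before the start of CER1 (GRCh38.p14, chr9:14722734-14722983, minus strand) and of GSC (chr14:94770114-94770363, minus strand) are shown because these genes had the lowest KO over WT ratios and were found together in WT cells. They are written 5′ to 3′, with matches to the motifs searched in capitals.

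CER1: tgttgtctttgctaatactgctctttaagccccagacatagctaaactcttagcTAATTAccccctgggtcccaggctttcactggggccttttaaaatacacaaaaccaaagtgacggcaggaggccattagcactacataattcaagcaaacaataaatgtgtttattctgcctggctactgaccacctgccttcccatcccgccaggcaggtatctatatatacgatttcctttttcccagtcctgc
GSC: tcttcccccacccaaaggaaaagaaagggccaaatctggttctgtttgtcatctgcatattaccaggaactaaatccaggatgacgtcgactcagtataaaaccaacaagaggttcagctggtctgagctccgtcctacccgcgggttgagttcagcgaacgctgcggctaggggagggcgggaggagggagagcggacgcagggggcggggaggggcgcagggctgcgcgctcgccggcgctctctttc

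Both strands of each window were searched for 6 motifs, and the share of 35116 RefSeq promoters of the same length that hold each one is given for scale. The motif TAATCC, read by homeodomains of the GSC and OTX2 type, was in 5.62% of them. The general homeodomain core TAATTA was in 4.35% of them and was the single match in CER1, where it began 196 bases before the start. The forkhead motif TGTTTAC was in 2.98% of promoters. The FOXH1 motif AATCCACA was in 0.709%, and the T-box motif AGGTGTGA was in 0.786%. The motif AGATAA, typical of GATA factors, was in 9.17% of promoters. The GSC window held none of them, which says only that these letters are not in these 250 bases.

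To ask how the group differed without intact GATA3, UMIs were first pooled over the cells of each library. CER1, GSC and LHX1 were far lower in the KO library, OTX2 was higher, and HHEX and CXCR4 stood at similar levels. Ratios are log2 of CPM plus 1 in the KO library over WT, a scale that understates changes of low genes, and a gene counted as measured when its CPM summed over both libraries reached 1. Of the 7 genes, 5 were measured (FOXA2 and CXCR4 fell short), 3 were at least 2-fold lower in the KO library and 1 was at least 2-fold higher. Among all 14452 genes measured, 2.12% were at least 2-fold lower and 1.93% at least 2-fold higher, and the median log2 ratio was 0.06.

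CER1 had 6498 UMIs in WT, a level of 65.2 CPM (63.7 to 66.9), and 185 UMIs in the KO library, 1.06 CPM (0.909 to 1.22). The log2 ratio was -5.01 (-5.12 to -4.90), and without the pseudocount CER1 was 61.8-fold higher in WT (53.4 to 71.9). GSC had 1005 UMIs in WT, 10.1 CPM (9.48 to 10.7), against 63 in the KO library, 0.359 CPM (0.276 to 0.460). Its log2 ratio was -3.03 (-3.14 to -2.91). LHX1 had 568 UMIs in WT, 5.70 CPM (5.24 to 6.19), against 106 in the KO library, 0.605 CPM (0.495 to 0.731). Its log2 ratio was -2.06 (-2.20 to -1.92). The intervals of the libraries did not overlap for any of these 3 genes.

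FOXA2 was rare in both libraries, with 34 UMIs in WT (0.341 CPM) and 5 in the KO library (0.0285 CPM), 12.0-fold higher in WT (4.66 to 39.2). In WT, 10 of these UMIs were in 1 cell, and the interval does not cover such gathering. HHEX had 191 and 394 UMIs, or 1.92 CPM (1.66 to 2.21) and 2.25 CPM (2.03 to 2.48), and the interval of its log2 ratio of 0.15 included 0 (-0.02 to 0.32). CXCR4 had 28 and 47 UMIs, or 0.281 and 0.268 CPM, with a log2 ratio of -0.01 (-0.17 to 0.13). OTX2 went the other way from CER1, GSC and LHX1. It had 1184 UMIs in WT, 11.9 CPM (11.2 to 12.6), and 5075 in the KO library, 29.0 CPM (28.2 to 29.8). The log2 ratio of OTX2 was 1.22 (1.13 to 1.30). Cells removed by the filter held 32.1% to 56.9% of the UMIs of these genes in WT and 37.5% to 42.7% in the KO library, and over all deposited cells CER1 was at 49.4 and 1.06 CPM.

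**Figure D1:**
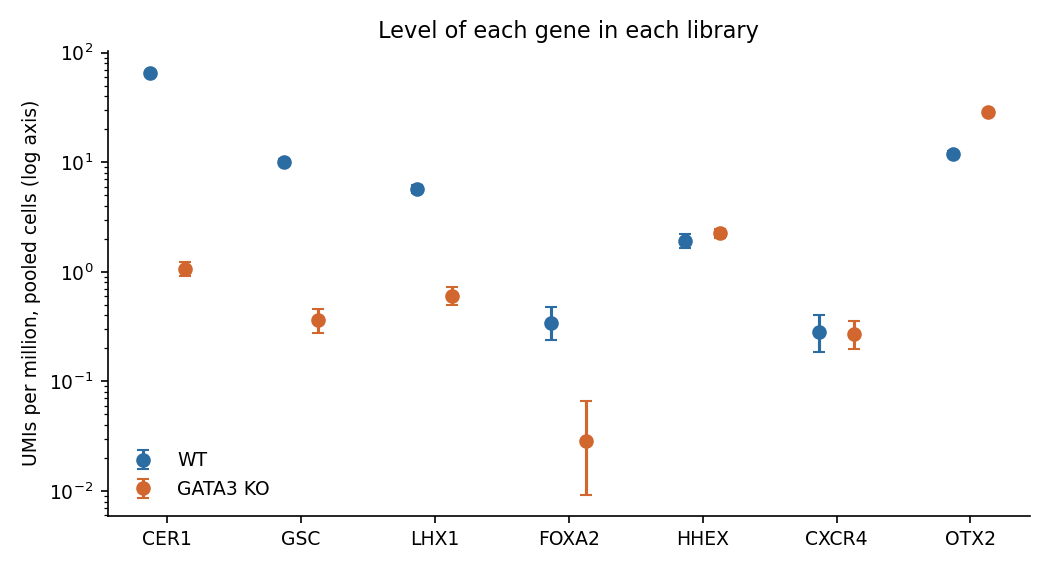
Level of each of the 7 genes in UMIs per 1000000 (CPM) on a log axis, with WT in blue and GATA3 KO in orange. Points are pooled cells of 1 library and bars are exact Poisson 95% intervals. CER1, GSC, LHX1 and FOXA2 were lower in the KO library, OTX2 was higher, and the intervals of HHEX and of CXCR4 overlapped.

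Pooled levels do not show how many cells carried a transcript, so each cell was thinned at random to 10000 UMIs and scored for at least 1 UMI. This kept 2173 WT and 4038 KO cells and left out 346 and 412 shallower ones. CER1 was found in 240 WT cells, 11.0% (9.76 to 12.4), and in 29 KO cells, 0.718% (0.481 to 1.03). GSC was found in 138 WT cells, 6.35% (5.36 to 7.46), and in 9 KO cells, 0.223% (0.102 to 0.423). LHX1 was found in 69 WT cells, 3.18% (2.48 to 4.0), and in 25 KO cells, 0.619% (0.401 to 0.913). At least 1 of these 3 genes was present in 14.9% of WT cells (13.4 to 16.5) and 1.56% of KO cells (1.2 to 1.99), a difference of -13.4 percentage points (-15.0 to -11.8).

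OTX2 was found in 219 WT cells, 10.1% (8.84 to 11.4), and in 897 KO cells, 22.2% (20.9 to 23.5), so its higher pooled level went with more than a doubling of the share of cells. HHEX was found in 38 WT cells, 1.75% (1.24 to 2.39), and in 78 KO cells, 1.93% (1.53 to 2.40). CXCR4 was found in 5 and 8 cells, 0.230% and 0.198%. FOXA2 was found in 7 WT cells, 0.322% (0.13 to 0.663), and in 0 of 4038 KO cells. A floor of 3 counts corresponds to a share of 0.0743% there, and the exact upper limit is 0.0913%. Without thinning, FOXA2 was seen in 18 of 2519 WT cells and 5 of 4450 KO cells. The unthinned shares were 16.9% and 1.69% for CER1, 14.6% and 0.899% for GSC, 7.54% and 2.02% for LHX1, 5.72% and 7.35% for HHEX and 29.5% and 48.5% for OTX2.

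As a guide to UMIs found in cells assumed to lack these genes, the amnion/trophectoderm-like cells of each library (a cluster described below) were scored in the same way. In WT, CER1 was found in 4.30% of 93 such cells, OTX2 in 3.23% and GSC, LHX1 and HHEX in 0, where the floor of 3 counts allows up to 3.23%. In the KO library, CER1, GSC and LHX1 were found in 0 of 264 such cells, where that floor allows up to 1.14%, HHEX in 0.379% and OTX2 in 1.52%. Median depths before thinning were 44623 and 45278.5 UMIs in these cells, against 47122 and 44830 over all thinned cells. The whole-library shares of CER1 and GSC in WT and of OTX2 in both libraries were above these levels. The KO share of HHEX, 1.93%, was above the 0.379% found. That level rests on few positive cells and is given without its interval, so this share is not read as expression either. The WT shares of LHX1 and HHEX and the KO shares of CER1, GSC and LHX1 lay below the limit that 0 or few cells allow. That limit reflects the small number of reference cells and is not a measured background. It cannot decide these shares, which are neither read as expression nor dismissed on their own. Counts per cell and by cluster are given below.

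**Figure D2:**
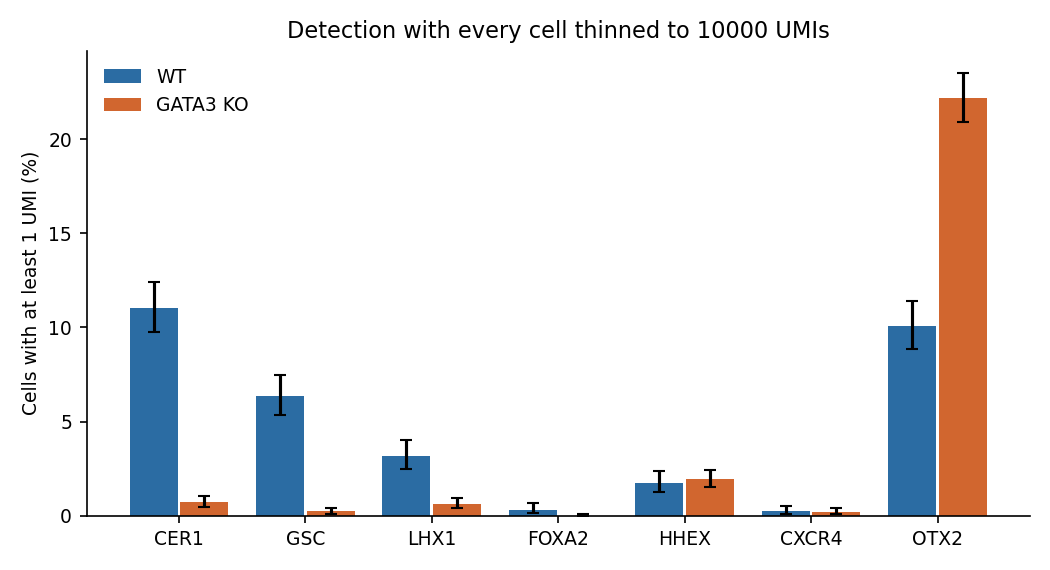
Percent of cells with at least 1 UMI of each gene after each cell was thinned to 10000 UMIs, for 2173 WT cells (blue) and 4038 GATA3 KO cells (orange). Bars start at 0 and error bars are exact Clopper-Pearson 95% intervals. CER1, GSC and LHX1 were mainly in WT cells and OTX2 was in more KO cells.

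The WT signal was concentrated in few cells. Before thinning, 29 cells, 1.15% of the WT library, held 50% of all CER1 UMIs, 40 cells had at least 50 CER1 UMIs, and the top 100 cells held 85.3%. For LHX1 23 cells held 50% of the UMIs, and for GSC 66 cells did. OTX2 was spread more evenly, with 50% of its UMIs in 202 WT cells and in 542 KO cells. In the KO library the highest CER1 count in a cell was 40, only 7 cells reached 5 CER1 UMIs, and no cell exceeded 8 GSC or 3 LHX1 UMIs.

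The cell with the most CER1 showed what the upper end looked like. Among its 58539 UMIs it held 250 of CER1, 8 of GSC, 36 of LHX1, 7 of HHEX, 8 of OTX2, 65 of SOX17 (an endoderm factor), 21 of GATA6 and 59 of MIXL1, and 0 of SOX2 and FOXA2. The cell with the most GSC held 30 GSC, 134 CER1, 13 LHX1 and 32 MESP1 UMIs, but 3 of SOX17. The single WT cell with many FOXA2 UMIs held 10, along with 76 of CER1 and 38 of MIXL1 but 0 of GSC, LHX1 and SOX17. In the KO library, the cell with the most CER1 held 40 CER1, 43 MIXL1 and 3 OTX2 UMIs, 2 of GSC and 0 of LHX1. These cells were picked for their counts and are given as examples.

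The next question was whether CER1, GSC and LHX1 were in the same cells. In thinned WT cells CER1 and GSC occurred together in 79 cells, against 15.2 by the product of their shares (the number that 2 unrelated genes would give), a ratio of 5.18 (4.10 to 6.46). CER1 and LHX1 shared 42 cells against 7.62, a ratio of 5.51 (3.97 to 7.45). GSC and LHX1 shared 27 cells against 4.38, a ratio of 6.16 (4.06 to 8.96). Of GSC-positive WT cells 57.2% had CER1, as did 60.9% of LHX1-positive cells. OTX2 joined the group more loosely, with 46 cells shared with CER1 (ratio 1.90, 1.39 to 2.54), 33 with GSC (2.37, 1.63 to 3.33) and 18 with LHX1 (2.59, 1.53 to 4.09). HHEX shared 10 cells with OTX2 (2.61, 1.25 to 4.80) and 7 with CER1 (1.67, 0.671 to 3.44).

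All of these genes can mark the same class of cells, so pairs were counted again within 516 thinned primitive streak-like WT cells. There the ratios were 2.08 for CER1 and GSC (1.62 to 2.61), 2.31 for CER1 and LHX1 (1.65 to 3.14), 2.48 for GSC and LHX1 (1.59 to 3.69) and 1.85 for CER1 and OTX2 (1.34 to 2.49). They were lower than over all cells for the first 3 pairs but still above 1. This ratio has a lower ceiling where the genes are more common, so the drop is not read as weaker pairing. The class also joins 2 clusters, described below, and cluster 8, with 293 of these cells, held most CER1, GSC and LHX1 UMIs. Ratios above 1 can come from that uneven split alone, so pairing beyond cluster membership was not tested. Of GSC-positive cells in this class 72.0% had CER1 (62.1 to 80.5), against 57.2% over all WT cells.

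In WT 35 thinned cells held 3 of the 7 genes, 9 held 4 and 2 held 5. In the KO library no cell held more than 2, and no cell held any pair out of CER1, GSC and LHX1. At full depth, however, 10 KO cells held both CER1 and GSC, against 0.674 by the product of shares (ratio 14.8, 7.11 to 27.3), 3 held CER1 and LHX1, 1 held GSC and LHX1, and 0 held all 3, which 88 WT cells did. Cells with both CER1 and GSC were thus seen in the KO library at full depth only, against 218 such cells in WT. The part of depth in this ratio was not tested. KO OTX2 did not share cells with CER1 beyond the product of shares (3 thinned cells, ratio 0.466, 0.0960 to 1.36).

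WT cells were also ordered by their thinned CER1 count. GSC was found in 3.05% of 1933 cells without CER1, 14.6% of 96 cells with 1 UMI, 32.3% of 65 cells with 2 to 4, and 55.7% of 79 cells with 5 or more (44.1 to 66.9). LHX1 stayed near 1% in cells with 0 or 1 CER1 UMI (1.40% and 1.04%) and was found in 9.23% and 44.3% of the higher classes. OTX2 went from 8.95% to 11.5%, 15.4% and 31.6%. MIXL1 was in all 79 cells of the highest class, and EOMES in 93.7%. GATA6 reached 63.3% and MESP1, a factor of nascent mesoderm, 58.2%, whereas SOX17 was found in 12.7% of these cells and in 16.9% of the class below. SOX2, a pluripotency factor, was in 58.4% of cells without CER1. It was in 30.2%, 16.9% and 32.9% of the classes with CER1, from lowest to highest, and so did not fall steadily.

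**Figure D3:**
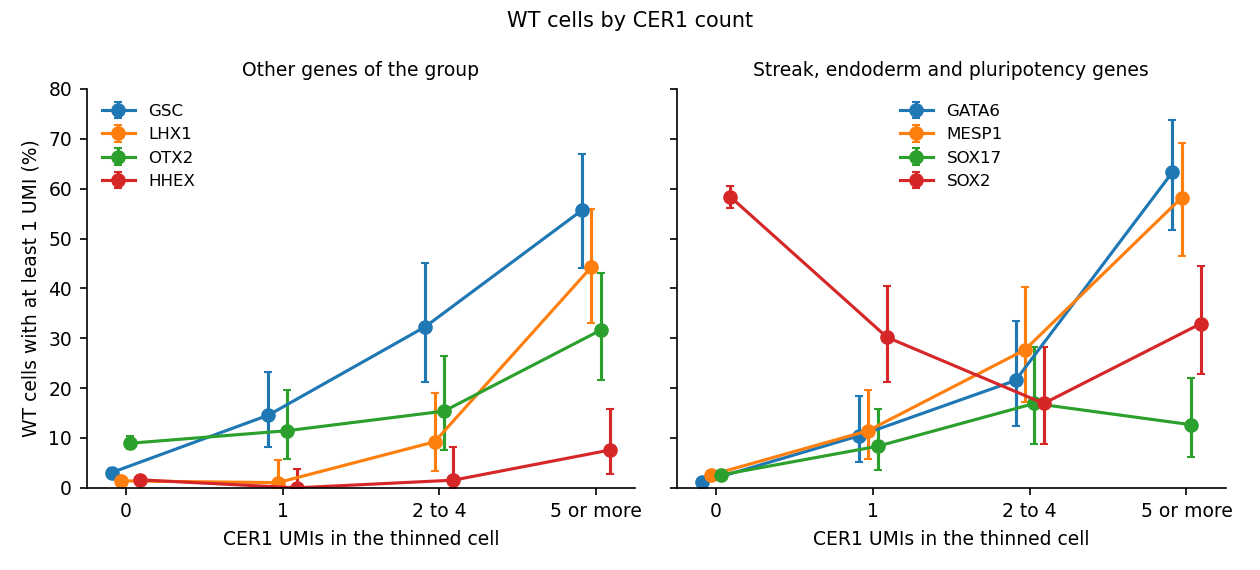
Percent of thinned WT cells with at least 1 UMI of 8 other genes, by the number of CER1 UMIs in the cell (0, 1, 2 to 4, 5 or more, with 1933, 96, 65 and 79 cells). Bars are exact Clopper-Pearson 95% intervals. GSC, LHX1, GATA6 and MESP1 were found more often at higher CER1 counts, SOX17 was no higher in the highest class than in the class below, and SOX2 was lower in cells with CER1.

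In both libraries, cells with CER1 held MIXL1, EOMES and NODAL more often than cells without it, from different base levels. MIXL1 was in 84.6% of the 240 WT cells with CER1 and 24.4% of those without, and in 27.6% of the 29 KO cells with CER1 (12.7 to 47.2) and 1.77% of those without. EOMES was in 75.0% and 24.9% of these WT cells, and in 37.9% (20.7 to 57.7) and 4.19% of the KO cells. SOX2 was in 27.5% and 58.4% in WT, and in 72.4% (52.8 to 87.3) and 86.6% in the KO library, where the intervals overlapped. NODAL, the ligand that CER1 binds, was in 70.4% and 46.9% in WT, and in 65.5% (45.7 to 82.1) and 8.98% in the KO library. GATA6 and MESP1 were in 30.8% and 31.3% of WT cells with CER1, whereas among the 29 KO cells 1 had GATA6 and 0 had MESP1. The 25 KO cells with LHX1 all had SOX2, close to the 86.4% of KO cells without LHX1 (interval for the 25 cells 86.3 to 100), while in WT SOX2 was in 36.2% of LHX1-positive cells and 55.6% of the others.

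Over 11603 genes found in at least 2% of the 2173 thinned WT cells, the genes most like CER1 by Pearson correlation across cells were FGF17 (0.67), GATA6 (0.63) and MIXL1 (0.58). Those most like GSC were CER1 (0.51), GATA6 (0.45) and MIXL1 (0.43), and those most like LHX1 were GATA6 (0.46), CER1 (0.45) and FGF17 (0.40). OTX2 had only weak partners, CER1 (0.16), FZD7 (0.15) and DKK1 (0.15). Across 4038 KO cells FGF17 still had 0.40 with CER1, whereas GATA6 had 0.06. These cells share 1 library each, and HHEX, FOXA2 and CXCR4 were in too few WT cells to be ranked.

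Cells were grouped into 19 clusters with the 7 genes and all class markers kept out of the genes used. Clusters 8 (led by CER1, FGF17, MESP1, GATA6 and DKK1) and 9 (led by FGF8 and NODAL) met the rule for the name primitive streak-like, cluster 7 (HAND1) for amnion/trophectoderm-like and cluster 18 (LHX5-AS1 and LHX5) for neural ectoderm-like. The rule was set after the data were seen, and it left 15 clusters unnamed with 75.2% of WT and 88.3% of KO cells. Primitive streak-like cells were 519 in WT (20.6%) and 201 in the KO library (4.52%), amnion/trophectoderm-like cells 105 and 278, and neural ectoderm-like cells 0 and 42. Different clusters held most of the streak class, since cluster 8 had 295 WT and 67 KO cells and cluster 9 had 224 and 134.

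Cluster 8 held 91.9% of all WT CER1 UMIs, 74.3% of GSC, 82.4% of LHX1 and 70.6% of FOXA2, but only 36.1% of HHEX and 23.0% of OTX2. CER1 stood there at 415 CPM in WT (404 to 425) and 31.8 CPM in the KO library (26.1 to 38.5), GSC at 51.8 and 10.8 CPM, and LHX1 at 32.5 and 1.80 CPM. In cluster 9 CER1 was at 12.0 and 4.37 CPM and OTX2 at 6.70 and 6.81 CPM. Outside the streak class, WT CER1 was found in 3.64% of thinned cells in unnamed clusters, no more than the 4.30% of amnion/trophectoderm-like cells. That level rests on few positive cells and is given without its interval, and the unnamed clusters differed among themselves. The comparison therefore cannot decide whether this share is expression. Highest among the values given here was cluster 11, with 67 WT cells of low depth and 73.2 CPM of CER1 (55.8 to 94.5). CER1 was found in 22.0% of its 41 thinned WT cells. Cluster 3 was also above 4.30%, with CER1 in 7.5% of its 200 thinned WT cells, but the interval (4.26 to 12.1) included that level. In the 16 clusters with at least 40 cells in each library, CER1 was lower in the KO library in 16, with an interval below 0 in 10. The median over these clusters was 5.38 CPM in WT and 0.161 CPM in the KO library. Most of them lie outside the streak class, so this count is not read as separate results cluster by cluster.

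Over the whole primitive streak-like class CER1 went from 248 CPM in WT to 14.5 CPM in the KO library, with a log2 ratio of -4.01 (-4.25 to -3.77). GSC was at 32.7 and 4.31 CPM (-2.67, -3.06 to -2.28), LHX1 at 19.7 and 1.44 CPM (-3.09, -3.56 to -2.56), HHEX at 3.26 and 1.21 CPM (-0.94, -1.46 to -0.36) and OTX2 at 13.8 and 6.85 CPM (-0.92, -1.28 to -0.57). SOX2 in the same cells was at 48.6 and 192 CPM, and its part in these ratios was not tested. These within-class ratios depended on how cells of the libraries were aligned. Without integration only 12 KO cells were named primitive streak-like, against 817 WT cells, and the log2 ratios were then 0.03 for CER1, 1.06 for GSC, 0.72 for HHEX and 0.70 for OTX2, while that of LHX1 was -3.86. Fewer streak cells and less transcript per streak cell therefore cannot be told apart by this grouping.

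OTX2 followed another pattern by cluster. It was higher in the KO library in 13 of the 16 clusters, with an interval above 0 in 10 and below 0 in 1 (cluster 8, 18.9 CPM in WT and 6.91 CPM in the KO library). All clusters come from 1 library per group, so this count too is not read as separate results. In unnamed clusters together OTX2 was at 11.8 CPM in WT (11.0 to 12.6) and 31.6 CPM in the KO library (30.7 to 32.5). The log2 ratio there was 1.35 (1.25 to 1.45). Next to the neural ectoderm-like cluster, the highest KO levels were 48.4 CPM in cluster 1, 44.4 CPM in cluster 5 and 43.3 CPM in cluster 6, where WT had 25.6, 21.5 and 19.8 CPM. These levels lay close together within each library, and those of the KO library did not overlap those of WT. The 42 neural ectoderm-like cells, all KO, had 127 CPM (109 to 148), above every other cluster, with OTX2 in 64.3% of them, while amnion/trophectoderm-like cells had 2.02 CPM in WT and 1.17 CPM in the KO library. HHEX was highest in cluster 0 in the KO library (5.93 CPM, WT 4.51 CPM) and in cluster 8 in WT (4.79 CPM, KO 1.2 CPM), and within WT these clusters had overlapping intervals.

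**Figure D4:**
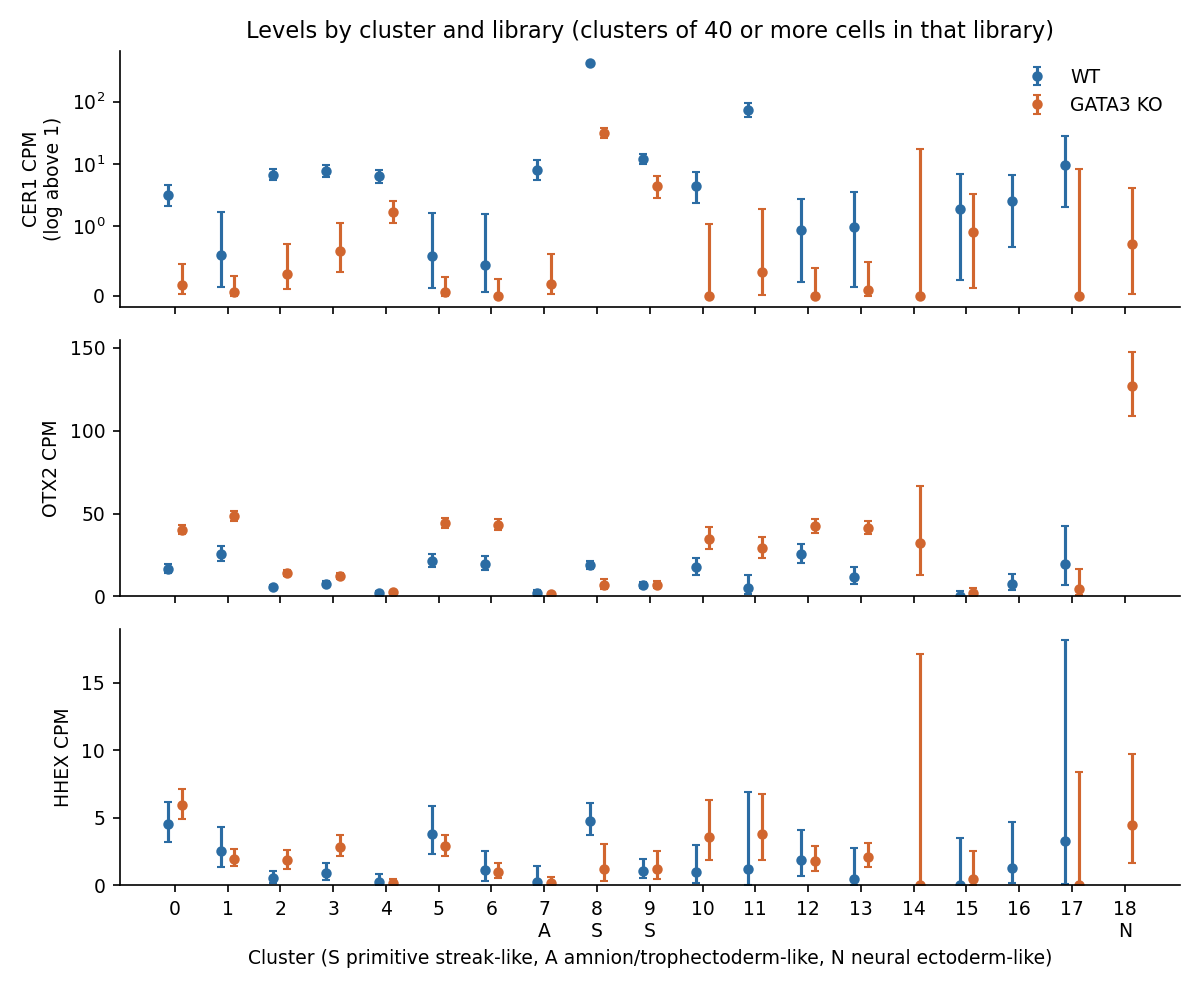
Levels of CER1 (log axis above 1 CPM), OTX2 and HHEX in each cluster with at least 40 cells in that library, WT in blue and GATA3 KO in orange. Bars are exact Poisson 95% intervals. CER1 peaked in cluster 8 in both libraries, OTX2 was higher in KO cells of most clusters and peaked in neural ectoderm-like cluster 18, and HHEX intervals mostly overlapped.

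OTX2-positive cells were of several kinds in WT. Of 219, 60 also had CER1, GSC or LHX1 (17 of them with SOX2 and 43 without), 125 had SOX2 and none of the 3, and 34 had none of the 4. In the KO library 11 of 897 had CER1, GSC or LHX1, and 869 (96.9%) had SOX2 and none of the 3. Within cells that had SOX2 and none of the 3, OTX2 was in 11.4% in WT (9.60 to 13.5) and 25.3% in the KO library (23.8 to 26.8). In cells with neither SOX2 nor any of the 3, it was in 4.50% in WT (3.14 to 6.24) and 3.17% in the KO library (1.85 to 5.02), and the intervals overlapped. GATA3 was in 0.669% of KO cells with OTX2 (0.246 to 1.45) and 9.39% of those without, and in 6.85% and 8.50% of WT cells.

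KO cells carried more SOX2, so OTX2 was compared within ranges of SOX2 counts. KO cells may still have had more SOX2 within a range, above all in the open one of 6 or more. The part of such a remainder was not tested. In thinned cells without SOX2, OTX2 was found in 7.87% of 978 WT cells (6.26 to 9.74) and 3.29% of 547 KO cells (1.96 to 5.15). At 1 to 2 SOX2 UMIs the shares were 10.0% of 640 WT cells (7.79 to 12.6) and 16.5% of 924 KO cells (14.1 to 19). At 3 to 5 they were 12.7% (9.71 to 16.1) and 25.6% (23.4 to 27.9), and at 6 or more 19.5% of 113 WT cells (12.6 to 28.0) and 32.1% of 1064 KO cells (29.3 to 35.0). The KO share was higher at each level with SOX2, with intervals apart. It was lower without SOX2, where 43 of the 77 OTX2-positive WT cells had CER1, GSC or LHX1, and the shares overlapped once cells with those genes were set aside, as given above.

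**Figure D5:**
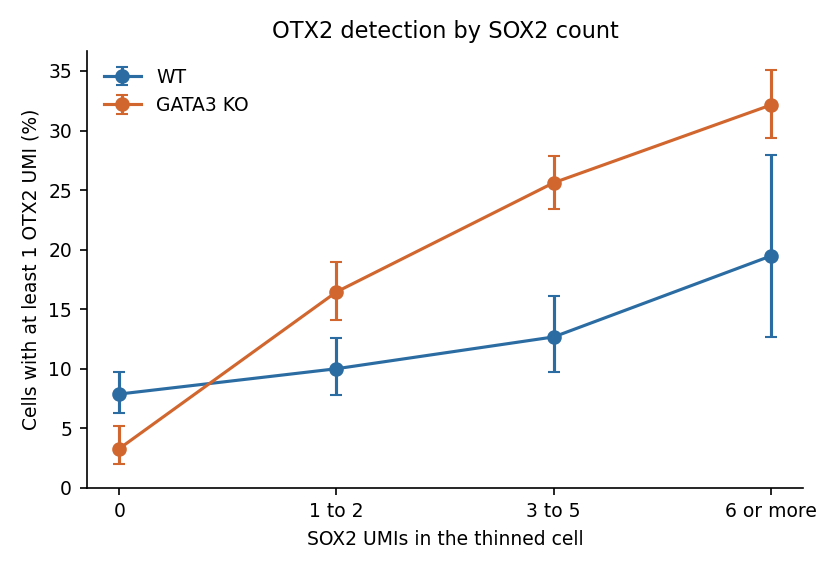
Percent of thinned cells with at least 1 OTX2 UMI, by range of the number of SOX2 UMIs in the cell, for WT (blue) and GATA3 KO (orange) cells. SOX2 counts may still differ between the libraries within a range. Bars are exact Clopper-Pearson 95% intervals. OTX2 was less frequent in KO than in WT cells without SOX2 (3.29% and 7.87%) and more frequent at 6 or more SOX2 UMIs (32.1% and 19.5%).

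The rarest members had some company of their own. Of the 18 WT cells with FOXA2 at full depth, 14 had CER1 (77.8%, 52.4 to 93.6), against 16.5% of the other 2501 cells, 16 had MIXL1, 11 OTX2, 9 GSC, 7 GATA6 and 3 SOX17. Their median depth was 52753.5 UMIs against 44288 in the other cells, and the part of depth in these shares was not tested. No WT cell held more than 1 CXCR4 UMI. SOX17 was in 4 of the 28 WT cells with CXCR4 (14.3%, 4.03 to 32.7) and 6.50% of the others (5.57 to 7.54) at full depth, and in 2 of 5 (40%, 5.27 to 85.3) and 3.55% (2.81 to 4.42) after thinning. HHEX and CXCR4 shared 8 KO cells against 3.38 by the product of shares (ratio 2.37, 1.02 to 4.66) and 3 WT cells against 1.60 (1.87, 0.387 to 5.48), and 0 cells in either library after thinning.

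Genes that act around the 7 were described from lists. Of 11 secreted antagonists and relatives of CER1, 9 were measured, 3 were at least 2-fold lower in the KO library and 2 higher, with a median log2 ratio of 0.13 against 0.06 over all genes. DKK1, a WNT inhibitor of the anterior streak, was at 12.1 and 1.35 CPM (-2.48), and the NODAL inhibitors LEFTY2 and LEFTY1, near-identical copies whose reads may be split unevenly, were at 9.73 and 2.18 CPM (-1.75) and at 16.4 and 5.43 CPM (-1.44). FRZB, a WNT inhibitor (2.44 and 5.96 CPM, 1.02), was just past 2-fold higher. The classical organizer inhibitors CHRD and NOG were low in both libraries, with CHRD at 0.161 and 0.274 CPM and NOG at 1.40 and 2.21 CPM (0.42).

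In NODAL signaling 10 of 11 genes were measured, 2 were at least 2-fold lower and 0 higher, with a median of -0.12. The ligands NODAL (102 and 18.2 CPM, -2.42) and GDF3 (25 and 11.7 CPM, -1.03) were the 2, while the receptors, SMADs and FOXH1, the factor through which NODAL acts on many of its targets, lay between. Of 16 streak, node and endoderm factors with relatives and cofactors, 12 were measured, 7 were at least 2-fold lower and 0 higher, with a median of -1.19. The 6 of largest size were MIXL1 (136 and 4.0 CPM, -4.77), TBXT (22.6 and 1.32 CPM, -3.35), SOX17 (10.6 and 0.160 CPM, -3.32), EOMES (68.1 and 6.33 CPM, -3.24), GATA6 (7.78 and 0.131 CPM, -2.96) and GATA4 (2.17 and 0.240 CPM, -1.35). LDB1 and SSBP3, cofactors through which LHX1 acts, lay within 2-fold (0.23 and 0.21). Of the CXCR4 axis, the ligand CXCL12 (29.3 and 28.8 CPM) and the receptor ACKR3 (1.03 and 1.15 CPM) were measured and neither was past 2-fold. Several of these genes are also class markers and were listed with earlier results of these data known, so their counts are not independent evidence of a direction.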

How the data were processed

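Single-cell RNA was measured in 2 libraries. The authors made 3′ libraries, ran Cell Ranger 3.0.2 with its GRCh38 reference (3.0.0) and deposited raw UMI counts per gene and cell barcode, with no upper limit on genes or mitochondrial share applied. All columns were matched to a sample. Cells above 7500 genes or 25% mitochondrial counts were removed, as in the study's methods. Pooled counts were scaled to 1000000 (CPM). Intervals were exact Poisson for levels, exact Clopper-Pearson for shares and exact binomial for ratios of levels, at 95%, and an absent gene was given a floor of 3 counts. The interval of a difference of shares combined the 2 Clopper-Pearson intervals and is approximate. For pairs, the Poisson interval of the shared cells was divided by the product of shares, taken as fixed. Equal depth was reached by drawing 10000 UMIs per cell without replacement (seed 42).

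Clusters came from Seurat 5.3.0 (2000 variable genes, canonical correlation integration over 30 dimensions, resolution 1.2), with 56 genes kept out. A class name needed at least 3 of its markers at 2-fold over other cells and 1 CPM, more than any other class, and no other class with more markers among the top 10 genes. A name was also withheld where median depth was far below that of the library and no marker of the class was among those 10. This left cluster 15 (98 WT and 106 KO cells) unnamed, although 8 amnion/trophectoderm markers passed. Scrublet (scanpy 1.11.5) called 1 and 2 doublets and so had not worked. Doublets were kept, and removing the top-scored 116 and 310 cells was an alternative. The functions were tested on simulated data.

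The members and lists were chosen with earlier results of these data known. Genes named besides the 7 were list genes past 2-fold (up to 6 by size), the 3 most correlated genes per member, class markers, and genes singled out after their values were seen, among them SOX2, NODAL, CHRD, NOG, LDB1 and SSBP3. TMM factors came from edgeR 4.0.16 in R 4.3.3. Annotation was GENCODE on GRCh38, and promoters were from RefSeq. Some genes of the lists are counted but their values are not reported here.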

Additional observations from a re-analysis of the deposited data

Results flagged for a closer look

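OTX2 and HHEX differed between the libraries in opposite directions in 2 groups of cells. In primitive streak-like cells the KO over WT log2 ratio was -0.92 for OTX2 and -0.94 for HHEX, and in unnamed clusters it was 1.35 for OTX2 and 0.44 for HHEX. Each of these 4 intervals excluded 0 by counting error alone. There is 1 library per group, so the difference was not tested, and the streak values rest on 62 OTX2 and 11 HHEX UMIs in 201 KO cells. Without integration of the libraries the streak-like ratios turned positive.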

How the results depend on the processing

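No paired analysis was possible because each group holds 1 library, and no library could be left out for the same reason. Over all alternatives for levels, 3 genes stayed at least 2-fold lower and 1 at least 2-fold higher in the KO library. The log2 ratio ran from -5.82 to -4.61 for CER1, -4.47 to -2.70 for GSC, -3.04 to -1.69 for LHX1 and 1.19 to 1.28 for OTX2. The difference in the share of cells with CER1, GSC or LHX1 was -13.4 points and became -9.98 at 5000 UMIs, -18.5 at 20000 UMIs, -21.1 without thinning and -7.03 with at least 2 UMIs required. The CER1 and GSC ratio to the product of shares (5.18) became 4.03 at 20000 UMIs, 3.51 without thinning and 11.4 at 2 UMIs, where that of CER1 and OTX2 became 4.53. Merging libraries without integration turned the streak-like log2 ratios to 0.034 for CER1, 1.06 for GSC, 0.72 for HHEX and 0.70 for OTX2, with 12 KO cells left in the class, and gave 1.17 for OTX2 in unnamed clusters. Resolution 0.8 changed no direction. Among lists, a minimum of 10 CPM left 4 transcription factors lower and 0 antagonists higher because fewer genes were measured, all deposited cells gave 1 antagonist higher and 1 NODAL signaling gene lower, and a pseudocount of 0.1 CPM, which widens the ratios of low genes, gave 1 transcription factor higher (NOTO). Shares rise with the depth used. The cause of the other moves was not tested. Of 193 alternative values in all, 140 stayed close to the reported value (within its counting interval, or near it for counts of genes), 49 moved further without turning, and 4, the streak-like ratios given above, turned. Depth limits FOXA2 and CXCR4, seen in few cells.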
